A study of Mus musculus with 6 samples.

Results

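The transcripts of 10 sphingolipid enzyme genes, Sptlc1, Sptlc2, Cers2, Degs1, Degs2, Sgms1, Smpd1, Asah1, Sphk1 and Ugcg, were followed in breast cancer cells exposed to hydrogen peroxide for months. They were chosen by name out of the 24454 genes of the expression table, and all 10 were present. Their levels in these libraries were known when they were chosen, so their differences are described and no p-value is given for any of them. Where they are counted past a threshold, the count is not a test of them. The MTflEcad line is epithelial and comes from a mammary gland tumour of the MMTV-Neu strain, whose mice carry the Neu (ERBB2) oncogene under the mouse mammary tumour virus promoter, active in mammary epithelium. The line called I80 received 80 µM H2O2 each day for 7 months, the line called DI150 received 150 µM H2O2 on the same schedule, and PBS is the untreated control, labelled 0 µM over the same months. All groups share the strain, the tumour line and the culture medium. There was 1 line for each dose, so an effect of dose and an effect of line cannot be told apart. RNA depleted of ribosomal RNA was sequenced in 2 libraries per group, described as biological duplicates. The labels do not say that duplicates came from separate long-term cultures, so every spread given here is the spread between these libraries.

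Sphingolipids are membrane lipids built on a sphingoid base. Serine palmitoyltransferase makes the first such base, ceramide synthases attach a fatty acid to it, and a desaturase turns dihydroceramide into ceramide, the centre of the pathway. Ceramide is then turned into sphingomyelin or glucosylceramide, or is split by a ceramidase into sphingosine, which sphingosine kinases phosphorylate to the signalling lipid sphingosine 1-phosphate. Ceramide is known for its part in stress responses and cell death of epithelial and tumour cells, and sphingosine 1-phosphate for its part in survival and migration.

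The 6 libraries held 21017849 to 26608715 reads assigned to genes, and levels are given as CPM, reads of a gene per 1000000 assigned reads. A single read was worth 0.0376 to 0.0476 CPM. Where a group had no read, a floor of 3 reads per library (0.113 to 0.143 CPM) was used, and folds against it are lower bounds that cover counting error only. Of 8 mammary epithelial marker genes, 7 were above 10 CPM in every library, and their summed level was 6899 to 7082 CPM in PBS, 5101 to 5332 CPM in I80 and 5742 to 6174 CPM in DI150. Within that list, Krt8 (1883 to 2018 CPM in PBS, 568.3 to 715.9 in the treated lines), Krt18 (2742 to 2795 and 852.2 to 988.4) and Krt19 (5.75 to 11.2 and 0) were lower in the treated lines. So were Cdh1 (579.1 to 668.5 and 373.9 to 404.8), Cldn3 (180.0 to 213.0 and 149.5 to 173.6) and Cldn7 (238.8 to 242.5 and 197.1 to 226.2). Erbb2 (500.1 to 693.5 and 1989 to 2697) and Epcam (583.2 to 628.6 and 647.5 to 1109) were higher, and both are part of the summed level. The strain carries the Neu (ERBB2) oncogene, and whether Erbb2 reads include reads of it was not tested. Markers of other cell types were low. The immune list (6 genes, with Cd3e and Adgre1 among those at 0 throughout) summed to 9.77 to 17.2 CPM in PBS, most of it Csf1r, and to 1.57 to 2.06 CPM in the treated lines. The adipocyte list (4 genes, Adipoq at 0 throughout) summed to at most 0.162 CPM in PBS and I80 and to 11.8 to 13.6 CPM in DI150, nearly all from Lpl. The fibroblast list (6 genes, Pdgfrb at 0 throughout) summed to 21.8 to 24.0 CPM in every library, with Col1a2 at 15.3 CPM in both PBS libraries and 0 in the treated ones, and Pdgfra at 5.04 and 5.50 CPM in PBS and 14.5 to 19.0 CPM in the treated ones. Col1a1 was at 1.47 and 2.75 CPM in PBS and 3.63 to 8.90 CPM in the treated lines, and the endothelial list (4 genes) at 0.150 to 0.742 CPM. The part of other cells in the levels described here was not tested, and in bulk RNA fewer cells of a type and less RNA per cell cannot be told apart.

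**Figure D1:**
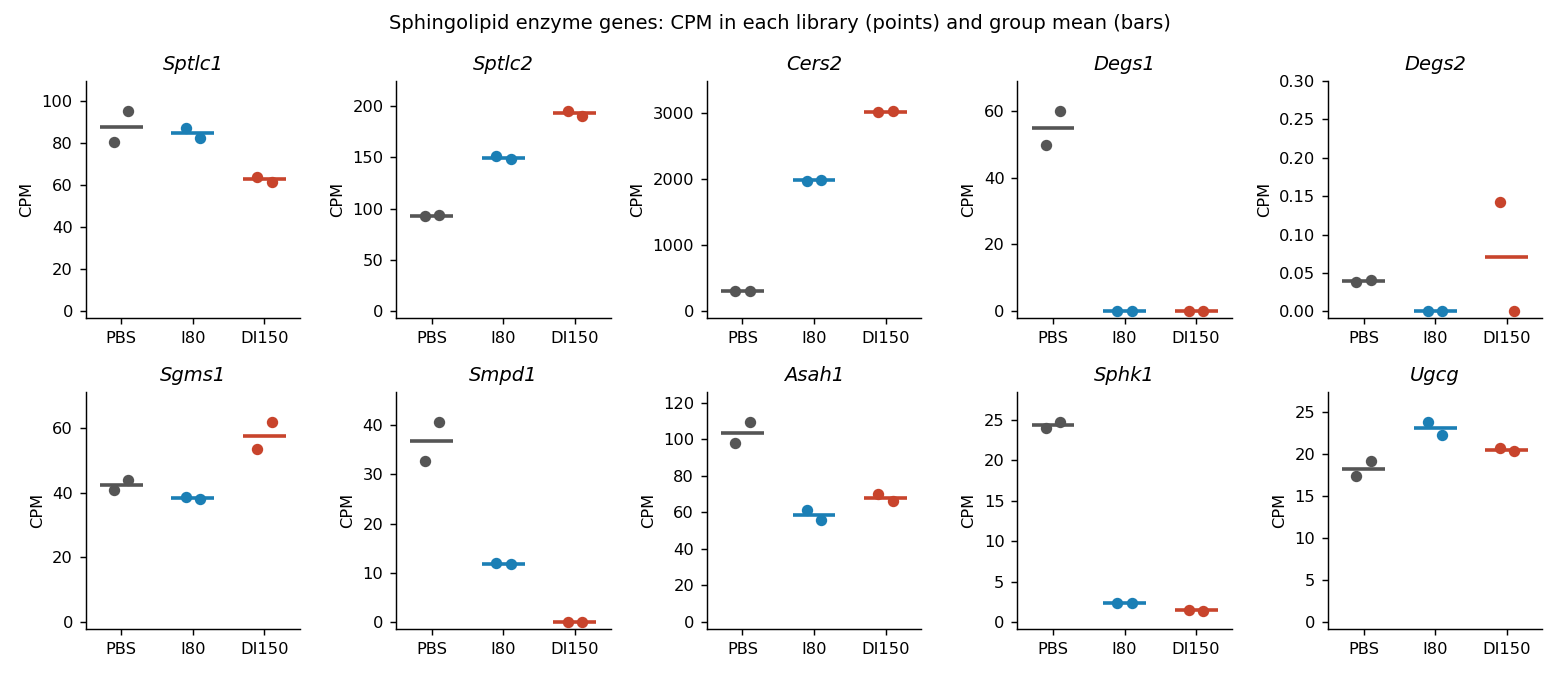
CPM of the 10 sphingolipid enzyme genes in each of the 6 libraries (points), with the group mean as a bar, for PBS, I80 and DI150. Each panel has its own linear axis. Cers2 and Sptlc2 stand higher in both treated lines, Degs1 is near 0 in both, and Smpd1 steps down from PBS to I80 and to 0 in DI150.

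The entry into the pathway is a complex whose large subunits are the products of Sptlc1 and Sptlc2. Sptlc2, the catalytic subunit (gene 20773, chromosome 12 of GRCm38, 87305058 to 87388355), stood at 92.5 and 93.9 CPM in the PBS libraries, 150.7 and 148.2 CPM in I80, and 194.9 and 190.4 CPM in DI150. No group overlapped another, and both treated lines were above PBS. The mean of 93.2 ± 0.969 CPM (SD, n = 2, as for every mean here) in PBS compared with 149.4 ± 1.77 in I80, 1.60-fold higher, and 192.7 ± 3.16 in DI150, 2.07-fold higher. Sptlc1, the partner subunit that the catalytic subunit needs (gene 268656, chromosome 13, 53332748 to 53377417), stood at 80.4 and 95.3 CPM in PBS, 87.0 and 82.4 CPM in I80, and 64.1 and 61.5 CPM in DI150. I80 lay inside the PBS range and DI150 lay below both other groups, 1.40-fold under the PBS mean of 87.8 ± 10.5 CPM. Per kilobase of exon, the ratio of Sptlc2 to Sptlc1 was 0.504 and 0.432 in the PBS libraries, 0.759 and 0.788 in I80, and 1.33 and 1.36 in DI150. The summed level per kilobase of Sptlc1, Sptlc2 and Sptlc3 was 36.7 ± 3.36 in PBS, 42.8 ± 0.953 in I80 and 41.8 ± 0.997 in DI150, so the summed levels lay much closer together than the ratios did.

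The promoters of Sptlc2 and Smpd1, an acid sphingomyelinase gene described further on, are printed because these genes lay on opposite sides of PBS in both treated lines and each has 1 annotated start with no annotated exon in the bases before it. The sequences are the 250 bases upstream of the start from RefSeq, build GRCm38.p6, written 5′ to 3′ on the gene's strand. Sptlc2 is at chr12:87388356-87388605 on the minus strand and Smpd1 at chr7:105554110-105554359 on the plus strand. Capitals mark matches on either strand to GGGCGG (GC box) or CCAAT.
Sptlc2 promoter: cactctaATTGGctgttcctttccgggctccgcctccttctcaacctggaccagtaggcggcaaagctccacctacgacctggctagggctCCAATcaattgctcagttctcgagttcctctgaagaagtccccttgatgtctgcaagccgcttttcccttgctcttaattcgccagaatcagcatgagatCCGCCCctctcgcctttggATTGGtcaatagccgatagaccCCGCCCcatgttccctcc
Smpd1 promoter: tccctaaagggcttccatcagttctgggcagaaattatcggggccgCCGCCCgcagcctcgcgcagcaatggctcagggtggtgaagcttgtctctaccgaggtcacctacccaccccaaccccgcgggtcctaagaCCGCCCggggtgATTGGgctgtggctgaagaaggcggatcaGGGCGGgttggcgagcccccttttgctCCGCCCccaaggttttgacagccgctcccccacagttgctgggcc
The Sptlc2 window held 2 GC boxes and 3 CCAAT matches at 55.2% G and C, and the Smpd1 window held 4 GC boxes and 1 CCAAT match at 64.8%. Of 32817 promoter windows of the same length, 32.7% held GGGCGG and 33.8% held CCAAT. Neither window held CACGTG (E-box, in 6.02% of windows), TGACTCA (AP-1, 4.46%) or TGACNNNGC (antioxidant response core, 10.2%), searched on both strands. The motifs do not overlap one another in these windows, and a match is a description of letters only.

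Cers2 encodes the ceramide synthase that prefers very long fatty acids, and its transcript was the most abundant of the 10 per kilobase in all 3 groups. Cers2 (gene 76893, chromosome 3, 95314771 to 95323599) stood at 304.8 and 303.5 CPM in PBS, 1971 and 1990 CPM in I80, and 3012 and 3030 CPM in DI150. The libraries of a group lay close together and no groups overlapped. The means were 304.2 ± 0.949 CPM in PBS, 1981 ± 13.7 CPM in I80 (6.51-fold higher) and 3021 ± 12.8 CPM in DI150 (9.93-fold higher, and 1.53-fold above I80). Its exons share 3.92% of their bases with the antisense gene 6330562C20Rik and 2.04% with Setdb1 on the other strand. Whether reads were counted by strand is not known from the sources used here, so reads in the shared bases cannot be told apart.

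Degs1 encodes the dihydroceramide desaturase, the last step of ceramide synthesis. Degs1 (gene 13244, chromosome 1, 182275964 to 182282854) stood at 49.7 and 59.9 CPM in PBS, 0 and 0.0412 CPM in I80, and 0.0476 and 0 CPM in DI150. The treated values are 1 read in each line. The ratio of pooled reads, PBS over treated, was 2725 for I80 (exact 95% interval 489 to 107667) and 2579 for DI150 (462.5 to 101911), intervals that cover counting error only. I80 and DI150 were both under the floor, so no fold between them is given. Degs2, the second desaturase, which also has hydroxylase activity (gene 70059, chromosome 12, 108686792 to 108702306), stood at 0.0376 and 0.0404 CPM in PBS, 0 in both I80 libraries, and 0.143 and 0 CPM in DI150. Degs2 was at or under the floor in every library and took no part in the fitted comparisons, so transcripts of both desaturase genes were close to undetected in the treated lines. The exons of Degs2 share 10.8% of their bases with Evl on the other strand.

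Sphingomyelin is made from ceramide by sphingomyelin synthases and returned to ceramide by sphingomyelinases. Smpd1, the acid sphingomyelinase of lysosomes (gene 20597, chromosome 7, 105554360 to 105558389), stood at 32.8 and 40.7 CPM in PBS, 11.9 and 11.7 CPM in I80, and 0 in both DI150 libraries. The 3 groups were fully separated, in the order PBS, I80, DI150. The PBS mean of 36.7 ± 5.62 CPM was 3.10-fold above the I80 mean of 11.8 ± 0.136 CPM. With no read among 21017849 and 26205388, Smpd1 was at least 285.7-fold lower in DI150 than in PBS and at least 92.1-fold lower than in I80. Sgms1, a sphingomyelin synthase of the Golgi (gene 208449, chromosome 19, 32122727 to 32389885), stood at 41.0 and 44.0 CPM in PBS, 38.8 and 38.1 CPM in I80, and 53.4 and 62.0 CPM in DI150. It was 1.10-fold lower in I80 (mean 38.5 ± 0.521 CPM) than in PBS (42.5 ± 2.14 CPM) and 1.36-fold higher in DI150 (57.7 ± 6.07 CPM), with no overlap in either case. The treated lines thus lay on opposite sides of PBS for this gene, a difference of 1.50-fold between their means. The I80 side was small, at -0.14 on the log2(CPM + 0.5) scale with an SE of 0.09, beside 0.43 with the same SE in DI150. Libraries of I80 and PBS did not overlap for 83.7% of all tested genes, so the lack of overlap says little.

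Asah1 encodes acid ceramidase, which splits ceramide into sphingosine and a fatty acid in lysosomes. Asah1 (gene 11886, chromosome 8, 41340646 to 41397644) stood at 97.6 and 109.5 CPM in PBS, 61.3 and 56.0 CPM in I80, and 69.8 and 66.2 CPM in DI150. Both treated lines were below PBS, and I80 was below DI150. The means were 103.6 ± 8.39, 58.6 ± 3.71 and 68.0 ± 2.54 CPM, 1.77-fold lower in I80 and 1.52-fold lower in DI150 than in PBS. Sphk1, the sphingosine kinase of the cytosol (gene 20698, chromosome 11, 116530836 to 116536675), stood at 24.0 and 24.8 CPM in PBS, 2.34 and 2.35 CPM in I80, and 1.47 and 1.37 CPM in DI150. Replicates lay close together and the groups did not overlap, with DI150 lowest. The PBS mean of 24.4 ± 0.547 CPM was 10.4-fold above I80 and 17.1-fold above DI150. Sphk1 exons share 4.02% of their bases with the antisense gene Gm29292.

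Ugcg encodes glucosylceramide synthase, the first enzyme of most glycosphingolipids. Ugcg (gene 22234, chromosome 4, 59189507 to 59222833) stood at 17.4 and 19.2 CPM in PBS, 23.9 and 22.3 CPM in I80, and 20.7 and 20.4 CPM in DI150. Both treated lines were above PBS, by 1.26-fold in I80 (23.1 ± 1.12 CPM) and 1.12-fold in DI150 (20.5 ± 0.226 CPM). These were small differences next to those of Cers2, Degs1, Smpd1 and Sphk1.

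**Figure D2:**
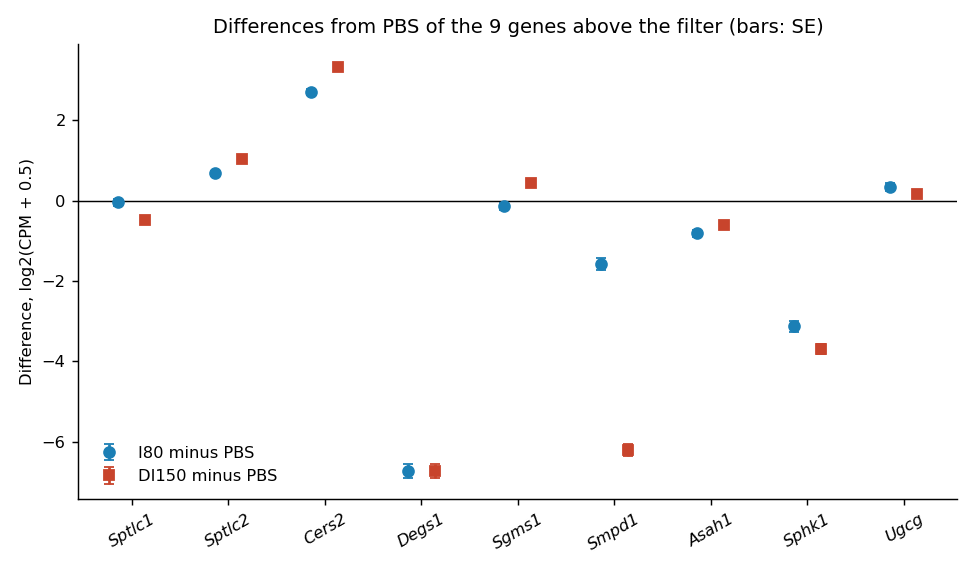
Difference of I80 from PBS (circles) and DI150 from PBS (squares) for the 9 genes averaging 1 CPM or more, on the log2(CPM + 0.5) scale, with bars for the SE. Cers2 is at 2.70 in I80 and 3.31 in DI150, Degs1 at -6.73 and -6.72, and Smpd1 at -1.59 and -6.21.

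In a limma fit over 11428 genes averaging 1 CPM or more, 7 of the 9 fitted sphingolipid enzyme genes passed an adjusted p of 0.05 between I80 and PBS, beside 66.4% of all tested genes, and nothing is read from that count. The genes were chosen with their values known, so those past the threshold are not named. Of them, 3 were higher (32.3% of all tested genes were called higher) and 4 were lower (34.2%). The higher count was smaller in some fits without 1 library. Between DI150 and PBS, 8 of 9 passed, beside 68.7% of all tested genes, and nothing is read from that count either. Of these, 3 were higher (32.7%) and 5 were lower (36.1%). The libraries did not overlap for 8 of 9 genes in I80 against PBS (83.7% of all tested genes) and for 9 of 9 in DI150 against PBS (83.5%). These comparisons use the same PBS libraries, so their directions are not independent. On the log2(CPM + 0.5) scale, where low genes are understated, the differences of I80 from PBS ran from -6.73 (Degs1) to 2.70 (Cers2) with a median of -0.14, beside 0.00 over all tested genes. Those of DI150 ran from -6.72 (Degs1) to 3.31 (Cers2) with a median of -0.48, beside -0.03.

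Between DI150 and I80, 6 of 9 passed, beside 43.8% of all tested genes, and again nothing is read from the count. The genes were chosen with their values known, so the count is a description and not a test. Of those that passed, 3 were higher in DI150 (21.9% of all tested genes were called higher) and 3 were lower (21.9%). Libraries did not overlap for 8 of 9 genes (78.5% of all tested genes). Without I80 replicate 1, or without DI150 replicate 3, the lower count was 1. The span of a gene's group means on that scale was widest for Degs1 (6.73) and Smpd1 (6.21), then Sphk1 (3.69) and Cers2 (3.31), and it was 1.04 or less for the other 5 fitted genes.

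Compared per kilobase of exon, the order of the 10 genes changed between groups below Cers2. In PBS, Cers2 (82.7 CPM per kb) was followed by Asah1 (30.6), Sptlc1 (24.7) and Degs1 (21.2). Sptlc1 and Degs1 overlapped in that order, as did Sptlc2 (11.5) and Smpd1 (11.0). Below them came Sphk1 (5.11), Sgms1 (4.03) and Ugcg (3.51), with Degs2 near 0. In I80, Cers2 (538.8 CPM per kb) was followed by Sptlc1 (23.8), Sptlc2 (18.4) and Asah1 (17.3), none overlapping its neighbour in the order, while Degs1 and Degs2 overlapped at the bottom. In DI150, Cers2 (821.9 CPM per kb) was followed by Sptlc2 (23.7), Asah1 (20.1) and Sptlc1 (17.7), again without overlap, and Degs2, Degs1 and Smpd1 were last.

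The place of each gene within its enzyme family also differed between the groups. The 6 ceramide synthase genes summed to 117.1 ± 1.33 CPM per kb in PBS, 559.5 ± 4.15 in I80 and 839.3 ± 3.28 in DI150. Cers2 made up 70.7% ± 1.02 of that sum in PBS, 96.3% ± 0.0494 in I80 and 97.9% ± 0.0313 in DI150, and Cers5, which prefers palmitate, made up 26.4%, 3.55% and 2.03%. The sphingomyelinase sum was 24.2 ± 1.85 CPM per kb in PBS, 13.0 ± 0.331 in I80 and 9.01 ± 0.607 in DI150. Smpd1 held 45.3% ± 3.49 of it in PBS, 27.3% ± 1.01 in I80 and none in DI150. Smpd4, another sphingomyelinase gene, was level at 8.56 ± 0.353, 8.65 ± 0.263 and 8.52 ± 0.555 CPM per kb, and so its share went from 35.5% to 66.5% and 94.6%.

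Sphk1 held 31.8% ± 3.02 of the sphingosine kinase sum in PBS, 4.23% ± 0.00293 in I80 and 2.92% ± 0.0593 in DI150. Per kilobase, the ratio of Sphk2 to Sphk1 was 1.95 and 2.37 in the PBS libraries, 22.6 and 22.7 in I80, and 33.7 and 32.7 in DI150. Sphk2 exons share 13.0% of their bases with Dbp and 8.97% with Rpl18 on the other strand. Reads in those shared bases cannot be told apart, which limits these shares and ratios. Asah1 was the main ceramidase transcript throughout, with 83.7% ± 1.01, 86.4% ± 0.202 and 86.2% ± 0.0724 of a sum of 36.5 ± 2.52, 20.0 ± 1.22 and 23.3 ± 0.849 CPM per kb. The share of Ugcg among the 2 hexosyltransferase genes was 88.1% ± 0.490 in PBS, 49.2% ± 0.710 in I80 and 43.2% ± 4.89 in DI150, beside a higher level of Ugt8a, the galactosylceramide synthase. Sgms1 held 42.0% ± 1.23, 37.5% ± 1.08 and 28.4% ± 2.55 of the sphingomyelin synthase sum, and the rest was Sgms2.

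**Figure D3:**
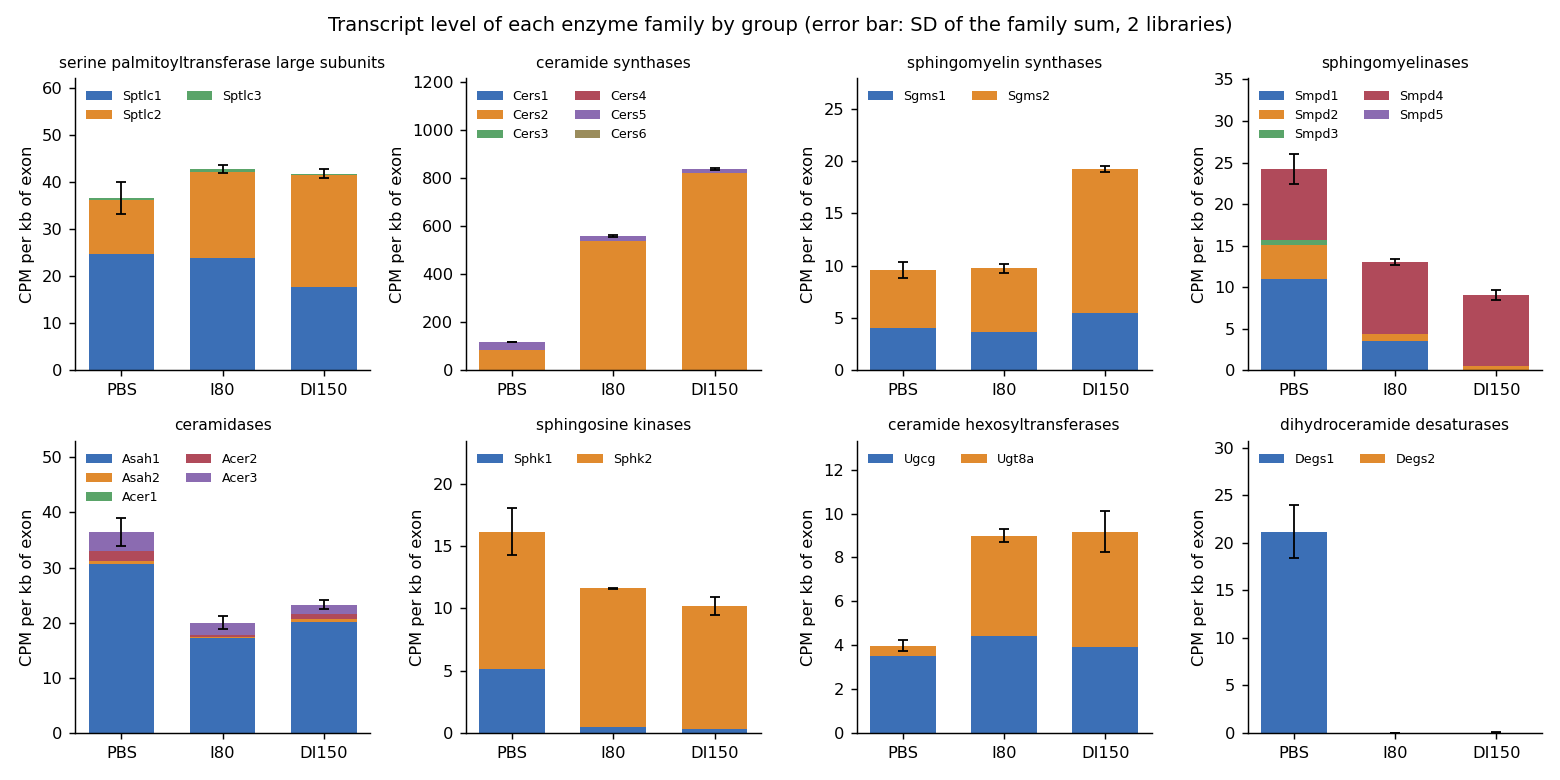
Transcript level of 8 sphingolipid enzyme families in PBS, I80 and DI150, as CPM per kb of exon on linear axes, with stacked bars for the mean of each gene and an error bar for the SD of the family sum over 2 libraries. The ceramide synthase bar is taken up by Cers2 in both treated lines (96.3% and 97.9%), the desaturase bar is near 0 there, and the sphingomyelinase bar keeps Smpd4 and loses Smpd1.

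The enzymes around these genes were read from a list of 69 other sphingolipid genes in 8 groups, of which 51 were fitted and 6 had no read in any library (Sptssb, Smpd5, Acer1, S1pr3, S1pr5 and B4galt5). In I80, 18 of the 51 rose and 22 fell against PBS by the limma test, and 11 did not pass (78.4% called, beside 66.4% of all tested genes). In DI150, 21 rose, 18 fell and 12 did not pass (76.5%, beside 68.7%). The median difference of the 51 genes was 0.02 on the log2(CPM + 0.5) scale in I80 and -0.01 in DI150, beside 0.00 and -0.03 over all tested genes. Over all tested genes, 32.3% were called higher and 34.2% lower in I80, and 32.7% and 36.1% in DI150. The list was written with earlier results of these data known, no test of the list as a whole or of its groups was made, and the group counts that follow are counts only.

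Among 9 fitted genes of sphingoid base and ceramide synthesis, 2 rose and 4 fell in I80, and 3 rose and 4 fell in DI150. Kdsr, the reductase that follows serine palmitoyltransferase, fell from 42.9 ± 10.3 CPM in PBS to 24.8 ± 1.05 in I80 and 18.5 ± 1.41 in DI150 (limma adjusted p = 0.00347 and 0.000347). The other 3 fitted ceramide synthases fell in both lines. Cers5 fell from 109.6 ± 3.31 CPM to 70.3 ± 1.82 in I80 and 60.4 ± 0.578 in DI150 (limma adjusted p = 9.74e-05 and 1.92e-05). Cers6, which like Cers5 prefers palmitate, fell from 12.2 ± 0.244 CPM to 6.98 ± 0.835 and 2.69 ± 0.0318 (limma adjusted p = 0.00164 and 9.62e-06). Cers3 fell from 6.68 ± 2.05 CPM to 0.0802 ± 0.00311 in I80 and 0.138 ± 0.141 in DI150 (limma adjusted p = 1.36e-05 and 1.49e-05). The folds, 83.2-fold and 48.4-fold lower, rest on 2 and 2 reads in I80 and 5 and 1 reads in DI150, and so are imprecise. Cers4 had at most 1 read in any library and was not fitted.

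Each of the 5 genes of ceramide transport and phosphorylation passed in both lines, 1 rising and 4 falling each time, beside 66.4% (I80) and 68.7% (DI150) of all tested genes called in either direction. Cert1, the protein that carries ceramide from the endoplasmic reticulum to the Golgi, fell from 77.2 ± 2.40 CPM to 40.8 ± 2.89 in I80 and 30.7 ± 0.50 in DI150 (limma adjusted p = 4.39e-05 and 5.92e-06). Cerk, the ceramide kinase, stood at 7.85 and 10.4 CPM in the PBS libraries and had 1 read in I80 and none in DI150. Its pooled ratio of PBS over I80 was 453 (exact 95% interval 80.9 to 17925), and it was at least 70.9-fold lower in DI150 (limma adjusted p = 1.64e-06 and 1.41e-06).

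Of 6 fitted genes of sphingomyelin synthesis and breakdown besides Sgms1 and Smpd1, 4 fell in I80, and 2 rose and 3 fell in DI150. Smpd2, a neutral sphingomyelinase, fell from 18.1 ± 1.63 CPM to 3.58 ± 0.479 in I80 and 2.14 ± 0.206 in DI150, 5.06-fold and 8.44-fold lower (limma adjusted p = 1.18e-05 and 2.93e-06). Its exons share 20.3% of their bases with Mical1 on the other strand. Smpd3, another neutral sphingomyelinase, stood at 3.14 ± 0.824 CPM in PBS with 4 reads in I80 and 1 in DI150, 39.1-fold lower in I80 and with a pooled ratio of 147.2 in DI150 (26.0 to 5849; limma adjusted p = 3.16e-05 and 2.16e-05). Smpdl3b, an acid sphingomyelinase-like enzyme, fell from 36.0 ± 0.921 CPM to 2.55 ± 0.468 in I80 and 10.7 ± 0.410 in DI150 (limma adjusted p = 5.55e-07 and 2.27e-05). Sgms2, the synthase found also at the plasma membrane, stood at 34.8 ± 3.51 CPM in PBS and 38.0 ± 2.27 in I80 (limma adjusted p = 0.26), and rose to 85.8 ± 1.74 in DI150 (limma adjusted p = 1.26e-05).

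The 3 fitted ceramidase genes beside Asah1 fell in I80, and 2 of them fell in DI150. Asah2, the neutral ceramidase, fell from 6.61 ± 1.91 CPM to 1.31 ± 0.306 in I80 (limma adjusted p = 0.00013) and stood at 7.28 ± 0.337 in DI150 (limma adjusted p = 0.547). Of 8 fitted genes of sphingosine 1-phosphate metabolism and transport, 2 rose and 4 fell in I80, and 3 rose and 3 fell in DI150. Sphk2, the kinase that acts beside Sphk1, had means of 45.9 ± 7.39 CPM in PBS, 46.3 ± 0.151 in I80 and 41.2 ± 2.93 in DI150 (limma adjusted p = 0.891 and 0.293). Without PBS replicate 1, the log2 difference of Sphk2 in DI150 was -0.31. Of the exon bases of Sphk2, 13.0% are shared with Dbp and 8.97% with Rpl18, both on the other strand. Sgpl1, the lyase that breaks down sphingosine 1-phosphate, fell from 98.2 ± 7.54 CPM to 56.1 ± 1.99 in I80 and 73.9 ± 1.31 in DI150 (limma adjusted p = 6.73e-05 and 0.00231). Plpp3, a lipid phosphatase that acts on sphingosine 1-phosphate outside the cell, rose from 2.43 ± 0.401 CPM to 59.0 ± 2.12 in I80 and 23.1 ± 0.181 in DI150, 24.3-fold and 9.54-fold (limma adjusted p = 1.44e-07 and 6.43e-07). Of the 5 receptors of sphingosine 1-phosphate, S1pr2 was the 1 that reached the filter, and it did not pass in either line.

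Of 7 fitted genes of glycosphingolipid synthesis besides Ugcg, 5 rose and 1 fell in each line. Of 12 fitted genes of glycosphingolipid breakdown, 8 rose and 2 fell in I80, and 7 rose and 1 fell in DI150, beside 32.3% and 32.7% of all tested genes called higher. St8sia1, the sialyltransferase that makes ganglioside GD3, rose from 0.760 ± 0.0118 CPM in PBS to 52.5 ± 4.54 in I80 and 98.7 ± 17.6 in DI150, 69.0-fold and 129.8-fold (limma adjusted p = 1.03e-07 and 4.57e-08). B4galt6, a lactosylceramide synthase, rose from 20.1 ± 0.417 CPM to 134.3 ± 13.1 and 164.1 ± 2.08 (limma adjusted p = 1.85e-07 and 9.85e-08). Ugt8a rose from 2.14 ± 0.0559 CPM to 20.7 ± 0.414 and 23.8 ± 4.46 (limma adjusted p = 1.66e-06 and 1.15e-06). St3gal5, which makes ganglioside GM3 from lactosylceramide, had means of 81.3 ± 13.8 CPM in PBS, 90.3 ± 3.36 in I80 and 98.1 ± 1.23 in DI150 (limma adjusted p = 0.23 and 0.0536). In DI150 St3gal5 lay at the edge of the threshold and passed under 8 of 16 alternatives, edgeR and DESeq2 among them (adjusted p = 0.00247 to 0.172 over the 16). In I80 it passed under 1 of 16, which was without PBS replicate 2 (log2 difference 0.34, limma adjusted p = 0.00677). The lowest value in DI150 was also without that library (0.45, limma adjusted p = 0.00247). St3gal2, a sialyltransferase of more complex gangliosides, fell from 8.03 ± 3.86 CPM to 1.89 ± 0.357 and 0.591 ± 0.0280 (limma adjusted p = 0.00125 and 8.66e-05).

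**Figure D4:**
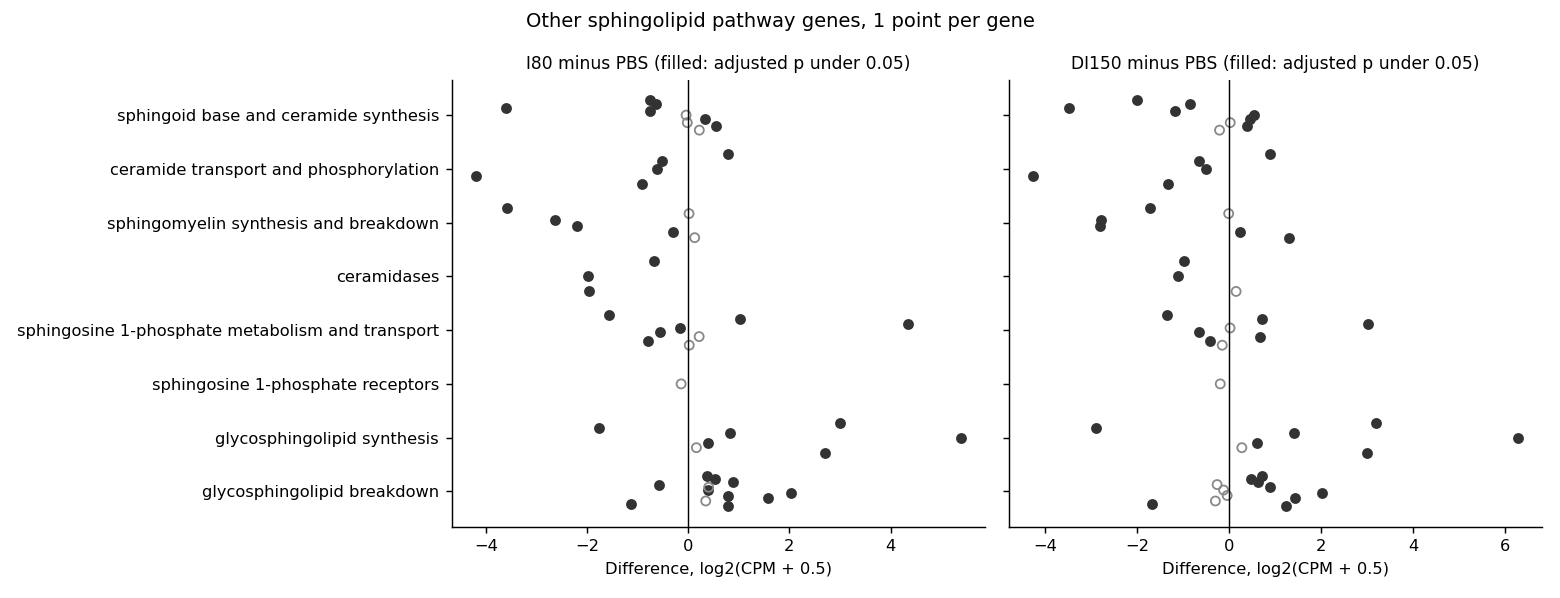
Differences of 51 other sphingolipid genes from PBS on the log2(CPM + 0.5) scale, in I80 (left) and DI150 (right), 1 point per gene, with the 8 groups of the list as horizontal bands and filled points for a limma adjusted p under 0.05. Ceramide transport has 1 point to the right and 4 to the left in each line, and glycosphingolipid synthesis has 5 filled points to the right and 1 to the left.

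Between the treated lines, 14 of the 51 genes were higher in DI150 than in I80 and 11 lower by the limma test (49.0% called, beside 43.8% of all tested genes). Leaving out any 1 of I80 replicate 1, I80 replicate 2, DI150 replicate 1 or DI150 replicate 3 lowered these counts to 8 to 9 higher and 3 to 6 lower. Asah2 was 5.56-fold higher in DI150, Smpdl3b 4.17-fold and Sgms2 2.26-fold (limma adjusted p = 0.000339, 8.62e-05 and 0.000131). St8sia1 was 1.88-fold higher (limma adjusted p = 0.00211). Cers6 was 2.60-fold lower in DI150 than in I80 and Plpp3 2.55-fold lower (limma adjusted p = 0.000486 and 0.00023). St3gal2 was 3.20-fold lower (limma adjusted p = 0.0196), and its adjusted p was 0.0611 to 0.124 without any 1 of the 4 treated libraries. Arsa, the arylsulfatase that degrades sulfatide, was 1.81-fold lower in DI150 (10.6 ± 0.868 CPM) than in I80 (19.2 ± 0.587 CPM; limma adjusted p = 0.0336), and its adjusted p was 0.1 to 0.162 without any 1 of them. Arsa stood at 7.85 and 15.0 CPM in PBS, and 18.8% of its exon bases are shared with the antisense gene C230037L18Rik.

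The chromosomal surroundings of the 10 genes were described after their levels had been seen, so this description supports nothing about them. All 6 of the nearest fitted protein-coding neighbours of Cers2 (Prune1, Mindy1, Anxa9, Setdb1, Arnt and Golph3l) stood higher than PBS in both treated lines. Their differences ran from 0.77 to 2.73 on the log2(CPM + 0.5) scale in I80 (median 2.35) and from 1.02 to 3.36 in DI150 (median 2.65), a range that holds Cers2 itself in each line (2.70 and 3.31). Arnt, for example, stood at 61.3 and 64.4 CPM in PBS, 406.7 and 402.6 CPM in I80, and 649.6 and 648.2 CPM in DI150. Setdb1, a histone methyltransferase gene, stood at 109.5 and 105.1 CPM in PBS, 478.4 and 490.6 CPM in I80, and 687.0 and 712.6 CPM in DI150. The 6 neighbours were not alike in size or order. Golph3l differed from PBS far less than Cers2 did (0.77 in I80 and 1.02 in DI150), and Mindy1, at 465.5 and 507.4 CPM in I80 and 474.0 and 421.9 CPM in DI150, overlapped between the treated lines.

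Counted outward from Cers2, an unbroken run of 29 genes (25 on the side of lower coordinates and 4 on the other) was more than 0.5 log2 higher in I80, over 1.19 Mb including Cers2. In DI150 the run was 32 genes over 1.29 Mb. Within 1 Mb of Cers2, 30 of 49 fitted genes in I80 and 38 of 49 in DI150 were more than 1 log2 higher. In each line 2 of the 49 were more than 1 log2 lower, Ecm1 (-3.82 and -3.66) and Adamtsl4 (-2.88 and -1.78). Over all 11428 tested genes, 2399 in I80 and 2468 in DI150 differed from PBS by 2-fold or more in either direction. Across the 10927 genes with 3 fitted neighbours on each side, the median of the 6 neighbours was above 1 for 1.71% in I80 and 2.40% in DI150. It was at or above that of Cers2 for 0.174% (19 genes) and 0.156% (17 genes). Adjacent genes share neighbours, so these genes are not independent of one another.

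The same description was made for the genes with the lowest treated levels. The nearest fitted neighbours of Degs1 were Fbxo28, at 79.3 ± 10.9 CPM in PBS, 66.5 ± 1.16 in I80 and 57.8 ± 1.69 in DI150, and Trp53bp2, at 76.1 ± 11.2, 54.9 ± 3.0 and 52.8 ± 3.15 CPM. Neither came near 0, and 1 of the 6 nearest neighbours, Capn2, was more than 1 log2 below PBS in each line (305.3 ± 8.53, 57.9 ± 2.49 and 45.0 ± 1.30 CPM). Enah and Srp9, also among the 6, were above PBS, by 2.16 and 0.42 log2 in I80 and 2.62 and 0.43 in DI150. Within 1 Mb of Degs1, 4 of 9 fitted genes in I80 (Capn2, Susd4, Tlr5 and Disp1) and 3 of 9 in DI150 (Capn2, Tlr5 and Disp1) were more than 1 log2 below PBS, the lowest being Disp1 at -4.86 and -4.91. Apbb1, whose nearer end lies 0.076 kb from Smpd1, was higher in the treated lines at 4.57 ± 0.512, 11.6 ± 0.111 and 8.78 ± 0.164 CPM, and none of the 10 fitted genes within 1 Mb of Smpd1 was more than 1 log2 below PBS. Around Sphk1, 8 of 41 fitted genes within 1 Mb in I80 and 10 of 41 in DI150 were. The 12 fitted genes within 1 Mb of Sptlc2 were all above 0 in both lines, with medians of 0.63 and 0.76. An unbroken run of 6 genes around Asah1 was more than 0.5 log2 lower in both lines, with a median of -0.74 in each.

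**Figure D5:**
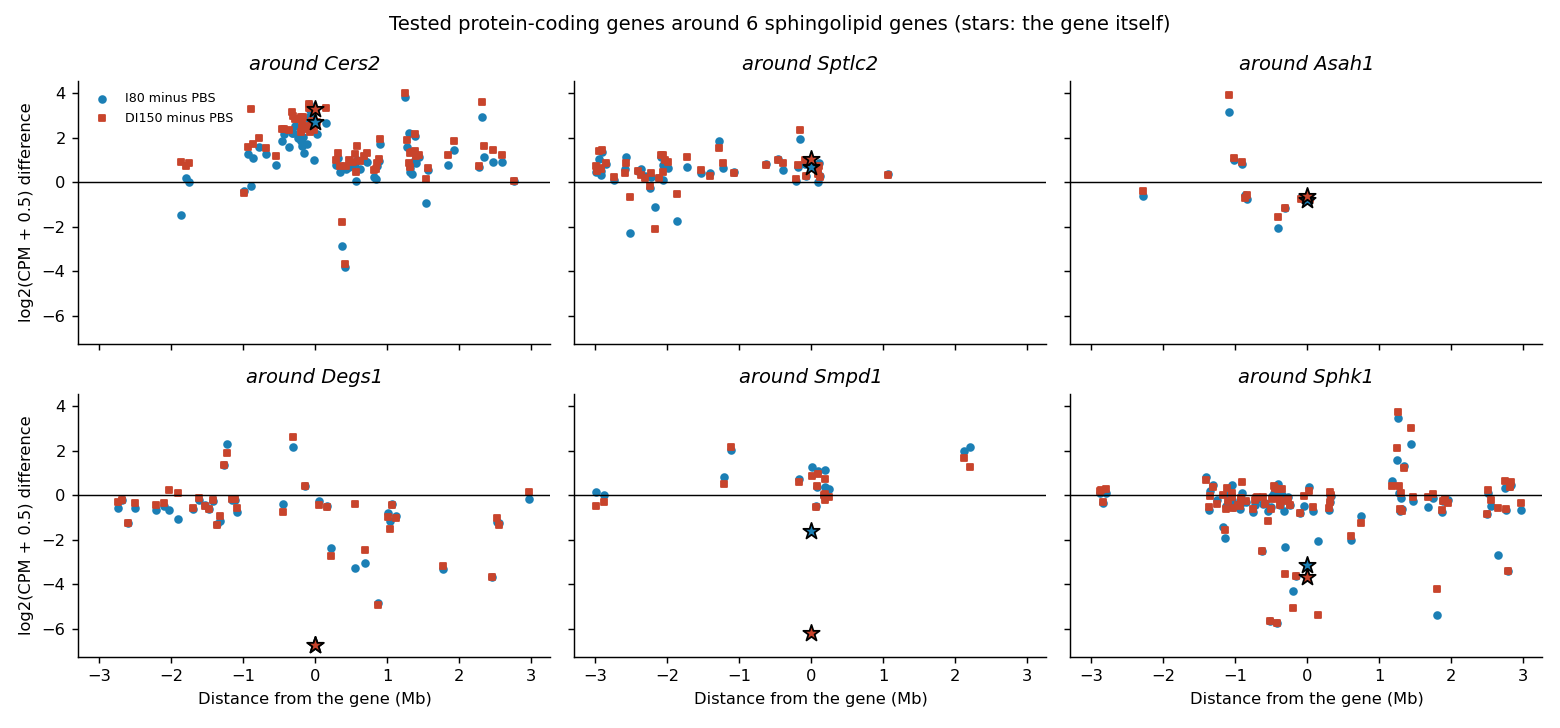
Differences from PBS on the log2(CPM + 0.5) scale of fitted protein-coding genes around Cers2, Sptlc2, Asah1, Degs1, Smpd1 and Sphk1, against distance in Mb, for I80 (circles) and DI150 (squares), with stars for the named gene. The stars of Cers2 lie within a group of high points, and the stars of Degs1 and Smpd1 (DI150) lie below all of their neighbours, with the I80 star of Degs1 hidden under that of DI150.

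Among 9026 genes averaging 10 CPM or more, the 4 with the pattern closest to Degs1 over the 6 libraries were Evc, Itpripl2, Gusb and Fut2, at a root mean square distance of 0.0910, 0.0933, 0.0942 and 0.101 between centred log2(CPM + 0.5) values. Evc, for example, stood at 46.4 and 49.7 CPM in the PBS libraries and 0 in all 4 treated libraries, and Gusb at 57.3 and 60.2 CPM with 1 read in all treated libraries together. Among the genes closest to Smpd1 were Tiam1 (0.204), Ociad2 (0.377) and Xist (0.441). Tiam1 stood at 75.1 and 81.9 CPM in PBS, 22.4 and 22.1 CPM in I80, and 0.619 and 0.878 CPM in DI150, a stepwise order like that of Smpd1. Reads of Xist may include reads of Tsix, which is transcribed from the opposite strand.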

How the data were processed

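RNA of 6 MTflEcad libraries was depleted of ribosomal RNA and sequenced as single 81-base reads, per the labels' protocols. STAR and the mm10 build are named without versions in the submitters' processing notes. How reads were counted, with which annotation and whether by strand, is not given in the sources used here. For 24454 Entrez gene numbers, the authors deposited CPM in 1 table, each column summing to 1000000, with no other scaling that the values show. Columns were assigned by treatment and number in their names. A DI150 column numbered 3 has no label with that number and is called DI150 replicate 3.

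RefSeq GRCm38.p6 gave symbols and positions for 24374 gene numbers (99.67%). Exon lengths and overlaps came from GENCODE M21 on GRCm38, with all isoforms of a gene merged, so values per kb assume that annotation. Dividing deposited CPM by the worth of 1 read gave whole reads, within 0.001 reads, for 100.0% of 146724 values. limma 3.58.1 (trend, R 4.3.3) was fitted on log2(CPM + 0.5) to 11428 genes averaging 1 CPM or more. The 3 groups shared 1 fit with 3 residual degrees of freedom and a prior of 4.52, two-sided tests were adjusted by Benjamini-Hochberg, with calls made at an adjusted p under 0.05. Folds are ratios of mean CPM, and intervals are exact at 95%. On the recovered reads edgeR 4.0.16 called 3668 genes up and 3942 down for I80 against PBS, 3687 and 4165 for DI150 against PBS, and 2480 and 2517 for DI150 against I80. DESeq2 1.42.0 was a further alternative.

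The enzyme genes and all lists were chosen with earlier results of these data known. The rule for other pathway genes named was the 4 largest rises and 4 largest falls per comparison among called genes whose groups did not overlap, plus 9 genes fixed by role (Kdsr, Sphk2, Sgpl1, Cers4, Cers5, Cers6, Sgms2, Cert1 and St3gal5). Smpd4, S1pr2 and the genes with no read were named after their values were seen. Alternatives were other pseudocounts, filters, scalings, fits and left-out libraries. Fitting was tested on simulated data. Some genes that the rules would name are not reported here.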

Additional observations from a re-analysis of the deposited data

Results flagged for a closer look

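For 13 sphingolipid genes outside the 10 enzymes, the effect in DI150 differed from that in I80, which is the limma test of DI150 against I80 since both effects use the same PBS libraries. The DI150 minus I80 difference on the log2(CPM + 0.5) scale was 2.11 for Asah2, 1.88 for Smpdl3b, 1.17 for Sgms2, 0.90 for St8sia1, 0.39 for Sgpl1 and 0.29 for B4galt6. It was -1.33 for Plpp3, -1.23 for Cers6, -1.12 for St3gal2, -0.83 for Arsa, -0.62 for Smpd2, -0.40 for Cert1 and -0.22 for Cers5. The 2 libraries of DI150 lay on the same side of both I80 libraries for each of them. Cers5 (adjusted p = 0.0335 by limma) had an adjusted p of 0.107 to 0.211 by limma without any 1 of the 4 treated libraries. Without I80 replicate 2, the limma adjusted p was 0.211 for B4galt6, 0.122 for Smpd2, 0.064 for Sgpl1 and 0.0771 for Cert1. Without DI150 replicate 1 it was 0.119 for B4galt6 and 0.0904 for Smpd2, and without DI150 replicate 3 it was 0.0923 for B4galt6.

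Sgms1 was lower than PBS in I80, by -0.14 on the log2(CPM + 0.5) scale, and higher in DI150, by 0.43, with every library of each treated line on its own side of both PBS libraries. Each difference had an SE of 0.09, so the I80 difference was small beside its SE. Libraries did not overlap for 83.7% of all tested genes in I80 against PBS and 83.5% in DI150 against PBS. The difference between these effects was not tested in its own right, because the gene was chosen with its values known.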

How the results depend on the processing

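The counts of higher and lower genes in I80 against PBS and in DI150 against PBS were within 1.5 times the reported counts under every alternative run. Between DI150 and I80, leaving out 1 library at a time gave 1295 to 1561 higher and 1187 to 1662 lower genes in place of 2503 and 2505, 8 to 9 higher and 3 to 6 lower genes of the other sphingolipid list in place of 14 and 11, and 1 to 3 lower genes among the 10 enzymes in place of 3. When the left-out library was of I80 or DI150, the remaining library of that line was assumed to vary like the other groups. The labels do not say whether libraries with the same number belong together. Deviations of libraries numbered 1 correlated at 0.02 for PBS and I80, -0.06 for PBS and DI150, and 0.21 for I80 and DI150. With the replicate number as a block, which also leaves DI150 replicate 3 in a level of its own, DI150 against I80 gave 1361 higher and 1327 lower genes, 8 and 3 genes of the other sphingolipid list, and 1 lower gene among the 10 enzymes. Against PBS, that block gave 2 higher enzyme genes in I80 and 2 in DI150, in place of 3 in each. A block that took DI150 replicate 3 as the second sample gave the reported counts of enzyme genes in every comparison. No enzyme gene that the text calls higher or lower than PBS changed side. Arsa in DI150 against PBS (-0.04) was -0.49 without PBS replicate 1 (limma adjusted p = 0.0184) and reversed to 0.41 without PBS replicate 2 (limma adjusted p = 0.0322), and the cause was not tested. Differences of Degs1 and Smpd1 near 0 reads depend on the pseudocount (Degs1 in I80 was -8.85 with 0.1 CPM and -5.77 with 1 CPM), which is why folds are ratios or bounds. Depth limits Degs1 and Degs2 in both treated lines and Smpd1 in DI150, where at most 3 reads a library were seen.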

Other observations

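Several genes of sphingolipid breakdown and export, named after their values were seen, had large differences from PBS. Spns2, an exporter of sphingosine 1-phosphate, fell from 1032 ± 108 CPM in PBS to 348.1 ± 11.7 in I80 and 407.3 ± 10.9 in DI150 (limma adjusted p = 3.02e-06 and 6.35e-06), so the exporter and Sphk1 were both lower in the treated lines. Lysosomal enzymes went in different directions. Hexa, a subunit of the hexosaminidase that degrades gangliosides, rose from 38.0 ± 10.3 CPM to 154.3 ± 3.69 in I80 and 153.5 ± 4.68 in DI150 (limma adjusted p = 1.93e-05 and 1.8e-05), and 12.8% of its exon bases are shared with Tmem202 on the other strand. Galc, which degrades galactosylceramide, rose from 23.9 ± 4.90 CPM to 71.9 ± 2.26 and 65.2 ± 1.75 (limma adjusted p = 2.63e-05 and 4e-05). Smpd1 and Asah1, lysosomal enzymes too, were lower in both lines, as described above.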
